A study of Mus musculus with 2 samples.

Results

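The type B intercalated nuclei of the mouse kidney were followed here in 2 single-nucleus RNA libraries, 1 from kidney remnants after 5/6 nephrectomy and 1 from sham-operated kidneys. A nucleus was counted as a member when its barcode held at least 1000 UMIs (unique molecular identifiers, each a counted RNA molecule) and at most 10% mitochondrial UMIs, and at least 1 of the intercalated genes Atp6v0d2, Atp6v1g3, Atp6v1c2 and Foxi1. It also needed at least 3 UMIs of Slc26a4, Insrr, Hmx2 and Slc4a9 together, and no fewer than of the type A genes Slc4a1, Kit and Aqp6. Slc12a1 with Slc12a3, and Slc34a1 with Slc13a1 and Slc5a12, could each take up to 0.1% of its UMIs. The rule found 84 members among 5563 barcodes that passed the depth and mitochondrial limits, 47 of 2908 in the nephrectomy library and 37 of 2655 in the sham library. The levels of these rule genes therefore chose the nuclei and are given as a description.

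Both libraries came from frozen kidneys of male T1+/+ mice, a genotype whose short name is not spelled out in the sources used here, operated at 11 weeks of age. In the nephrectomy group the right kidney was removed, and 1 week later both poles of the left kidney were tied off. Sham mice had the kidneys exposed and the wound closed. Kidneys were taken 4 weeks after surgery. How many animals went into a library is not given, and there was 1 library per group, so a difference between the groups has no replicate check and no test across animals was possible. Intervals below are 95% intervals that cover counting error only, since nuclei of 1 library are not replicates of a condition.

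Intercalated cells are the acid-base cells of the connecting tubule and collecting duct. Type B cells secrete bicarbonate into the urine and take up chloride through pendrin, the exchanger encoded by Slc26a4 on the apical membrane, while the vacuolar proton pump sits on the opposite side of the cell. Type A cells carry the pump on the apical membrane and the exchanger encoded by Slc4a1 on the basolateral one, and secrete acid. Both types depend on the forkhead factor encoded by Foxi1.

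The nephrectomy library held 28284727 UMIs over 3299 barcodes and the sham library 21365116 over 3084. Members had a median of 10129 UMIs in the nephrectomy library (range 4517 to 44502) and 7378 in the sham library (2262 to 16988). Their summed counts were 588743 and 306642 UMIs. The 2 libraries shared 2 barcodes, 1 of them a sham member. Of 93 nephrectomy and 73 sham barcodes with at least 3 UMIs of the marker sum, 46 and 36 were left out by the other limits, most often by the proximal tubule limit (31 and 20 barcodes, with overlaps between reasons). At the edge of the rule, a single sham barcode and no nephrectomy barcode met all other limits with 2 marker UMIs, while the lowest members held 3 UMIs in the nephrectomy library and 5 in the sham library.

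The label held for most members but not for all. Slc26a4 (ENSMUSG00000020651, chr12:31519827-31559969 in GRCm38) was found in 33 of 47 nephrectomy members, with lowest, median and highest counts of 0, 33 and 320 UMIs, and in 26 of 37 sham members, with 0, 46 and 186 UMIs. Counts thus ran from none to 320 and 186 UMIs, and the libraries overlapped over most of that range. Slc4a9 (ENSMUSG00000024485, chr18:36528147-36556273), a basolateral anion exchanger of intercalated cells, was found in every one of the 47 and 37 members, with 1, 30 and 90 UMIs in nephrectomy members and 1, 23 and 81 in sham members. Insrr (ENSMUSG00000005640, chr3:87796951-87816101), a receptor that senses alkaline pH, was found in 32 of 47 nephrectomy and 25 of 37 sham members. Hmx2 (ENSMUSG00000050100, chr7:131548773-131558014), a homeobox transcription factor, was found in 24 of 47 and 16 of 37. All 4 markers were seen together in 22 nephrectomy and 15 sham members. As a background, the share of proximal tubule nuclei with a UMI was 4.92% and 5.31% for Slc26a4, 1.45% and 1.01% for Insrr, 0.868% and 0.674% for Hmx2 and 5.21% and 3.2% for Slc4a9, nephrectomy before sham, over 1382 and 1187 nuclei with median depths of 8867 and 8173 UMIs. Single proximal nuclei held up to 185 and 70 Slc26a4 UMIs, so these shares do not measure free RNA alone.

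**Figure D1:**
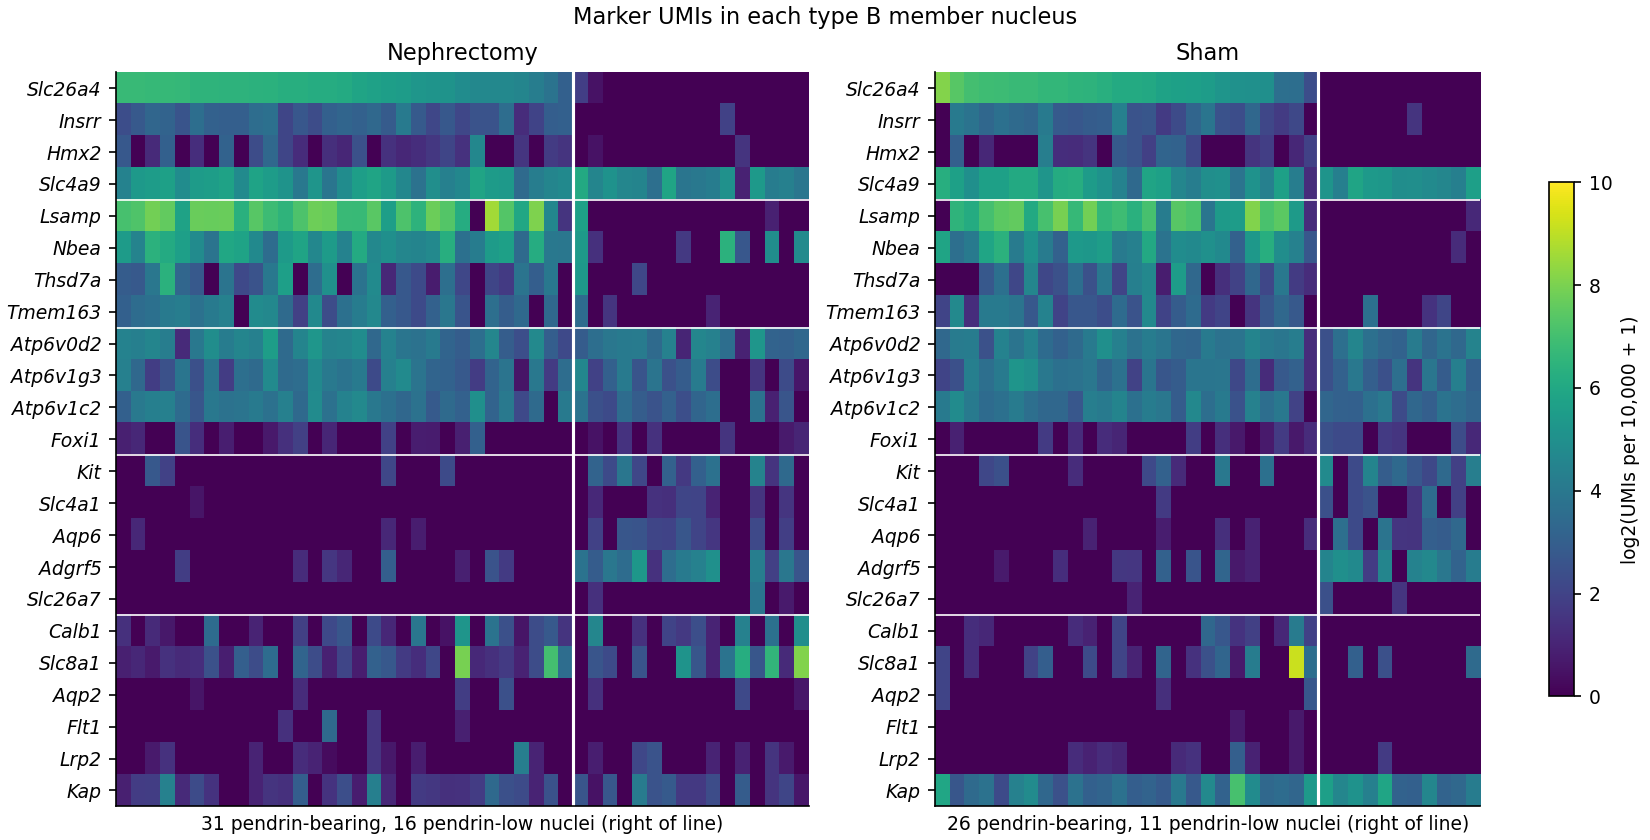
Each column is 1 member and each row 1 gene, with the colour giving log2 of 1 plus the UMIs scaled to 10000 per nucleus. Nephrectomy members are in the left panel and sham members in the right one, and in each panel the pendrin-low members stand right of the white line. In both libraries most columns right of the line are dark in Insrr and Lsamp and bright in Adgrf5.

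The members were split by their pendrin counts, which showed no wide gap at the limit used. Members with at least 3 Slc26a4 UMIs, a limit set after the counts were seen, are called pendrin-bearing here and numbered 31 of 47 in the nephrectomy library (66.0%, exact interval 50.7 to 79.1) and 26 of 37 in the sham library (70.3%, 53.0 to 84.1). The lowest of them held 4 and 3 Slc26a4 UMIs, and the highest of the pendrin-low members held 2 and 0. The sham nucleus with 3 Slc26a4 UMIs held 2 Hmx2, 1 Slc4a9 and 0 Insrr UMIs, and 9.51% of its 7195 UMIs were mitochondrial. It also held 4 Aqp2 and 3 Scnn1g UMIs, and 39 of the 116 principal cell marker UMIs of the pendrin-bearing sham members. The label is therefore not secure for this nucleus. Of the 16 nephrectomy and 11 sham pendrin-low members, 12 and 10 entered through Slc4a9 alone. Insrr was present in 1 and 1 of them, against 31 of 31 and 24 of 26 pendrin-bearing members. The adhesion receptor gene Adgrf5, a type A marker outside the rule, was found in 14 of 16 and 10 of 11 pendrin-low members, against 8 of 31 and 9 of 26 pendrin-bearing ones. Thinned to 2000 UMIs per nucleus, these counts were 12 of 16 and 9 of 11, against 1 of 31 and 4 of 26. Adgrf5 had a UMI in 10.9% and 8.59% of proximal nuclei. At least 1 UMI of the type A rule genes was present in 12 of 16 and 11 of 11 pendrin-low members, against 7 of 31 and 11 of 26 pendrin-bearing members. Those 12 and 11 nuclei, with type A UMIs and at most 2 Slc26a4 UMIs, went against the label. For 1 of them, a nephrectomy nucleus, the type A UMIs were 2 of Kit only. It also held 19 Slc4a9, 32 Nbea and 105 Slc8a1 UMIs. Of the other 4 pendrin-low nuclei, all in the nephrectomy library, 1 held 35 Slc4a9, 3 Insrr and 90 Nbea UMIs and 1 held 50 Slc4a9, 2 Slc26a4 and 38 Lsamp UMIs. The remaining pair held 80 and 542 UMIs of the connecting tubule gene Slc8a1. The pendrin-low members are therefore a mixed set and are called by their counts below.

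**Figure D2:**
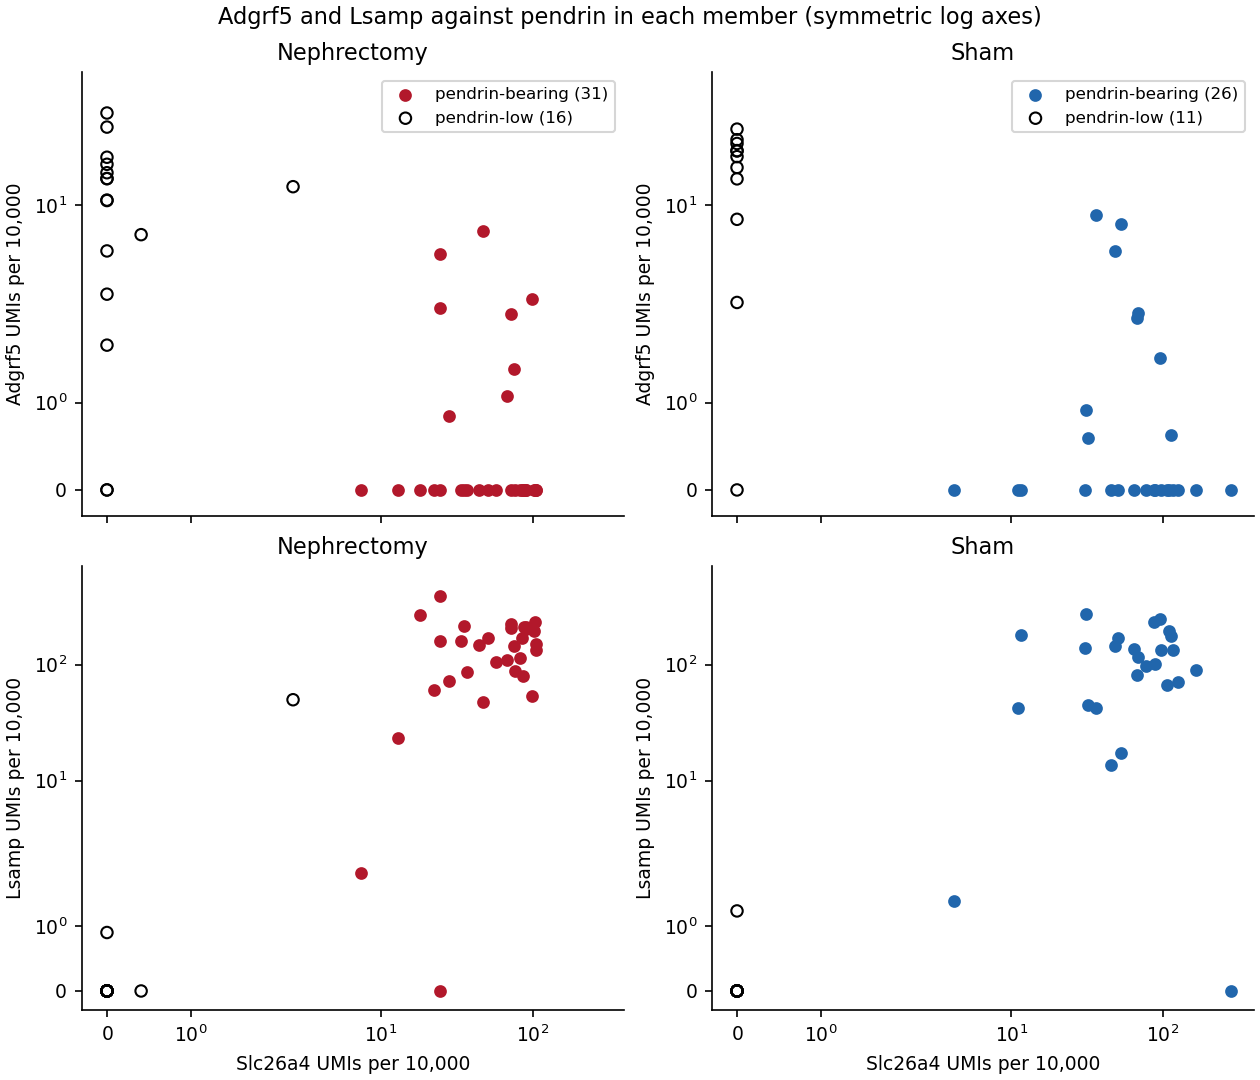
Each point is 1 member, with its Slc26a4 UMIs scaled to 10000 UMIs per nucleus on the horizontal axis and Adgrf5 (top) or Lsamp (bottom) scaled the same way on the vertical axis, all on symmetric log axes. Nephrectomy members are on the left and sham members on the right, and filled points are pendrin-bearing. Lsamp is at 0 in 14 of 16 and 10 of 11 pendrin-low members, while Adgrf5 is at 0 in 23 of 31 and 17 of 26 pendrin-bearing ones.

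The promoters of 3 rule genes that hold a forkhead-type match are shown because Foxi1 is the shared forkhead factor of intercalated cells and the genes of pendrin and of a pump subunit were read together with it in these nuclei. Each is the stretch of 250 bases before the gene's start in RefSeq (GRCm38.p6), and capitals mark matches to the forkhead-type letters TGTTTNC, searched on both strands. Slc26a4 lies at chr12:31559985-31560234, minus strand, with its match 137 bases before the start. Foxi1 lies at chr11:34208090-34208339, minus strand, with its match 217 bases before the start. Atp6v1g3, a kidney-type pump subunit, lies at chr1:138273488-138273737, plus strand, with its match 136 bases before the start.
Slc26a4: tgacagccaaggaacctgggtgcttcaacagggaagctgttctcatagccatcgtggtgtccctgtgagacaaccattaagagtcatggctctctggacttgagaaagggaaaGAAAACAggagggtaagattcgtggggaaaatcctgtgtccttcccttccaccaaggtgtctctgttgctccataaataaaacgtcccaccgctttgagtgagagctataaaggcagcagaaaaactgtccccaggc
Foxi1: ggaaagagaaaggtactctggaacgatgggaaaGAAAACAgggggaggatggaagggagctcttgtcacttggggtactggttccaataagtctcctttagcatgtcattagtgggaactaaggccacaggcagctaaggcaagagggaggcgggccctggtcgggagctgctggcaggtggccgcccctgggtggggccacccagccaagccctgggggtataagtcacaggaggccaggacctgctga
Atp6v1g3: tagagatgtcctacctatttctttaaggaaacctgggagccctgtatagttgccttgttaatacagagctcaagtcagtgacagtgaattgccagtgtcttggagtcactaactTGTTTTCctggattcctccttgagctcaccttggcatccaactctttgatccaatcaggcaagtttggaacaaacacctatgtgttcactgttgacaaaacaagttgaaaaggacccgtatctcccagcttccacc
The same letters occurred in 4836 of 27025 promoters of this length (17.9%) and in 3 of 19 promoters of pump genes (15.8%), so the match is common and describes these 3 windows only. Among the other genes looked up, the kidney-type pump subunit gene Atp6v1b1 held 1 match, and the rule genes Hmx2 (at both of its starts) and Atp6v1c2 and the carbonic anhydrase gene Car12 held 0.

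Pendrin-bearing and pendrin-low members differed in many genes that the rule did not read, though the split was drawn from Slc26a4 and the values are a description. Of 3172 genes with at least 20 UMIs over both sets in each library, 79 (2.49%) were at least 2 times higher in pendrin-bearing members in both libraries and 48 (1.51%) at least 2 times lower. Lsamp, an adhesion protein gene first known from the brain, had 6118 UMIs in pendrin-bearing against 39 in pendrin-low members of the nephrectomy library (ratio 63.2, 46.2 to 89) and 2862 UMIs in pendrin-bearing against 1 in pendrin-low members of the sham library (ratio 612, 109.7 to 24166). Igfbp5, a secreted protein that binds insulin-like growth factors, had 132 UMIs in pendrin-bearing against 3 in pendrin-low members of the nephrectomy library (ratio 17.7, 5.94 to 87.1) and 100 UMIs in pendrin-bearing against 0 in pendrin-low members of the sham library (at least 7.12-fold higher). Myo5a, a motor protein of vesicle transport, had 45 UMIs in pendrin-bearing against 1 in pendrin-low members of the nephrectomy library (ratio 18.1, 3.09 to 732) and 127 UMIs in pendrin-bearing against 0 in pendrin-low members of the sham library (at least 9.05-fold higher). Ripor2, Rp1, Thsd7a, Fam135a, Tmem163, Gramd1b and Cacna2d1 completed the 10 highest. At the other end, Adgrf5 had 30 UMIs in pendrin-bearing against 192 in pendrin-low members of the nephrectomy library (ratio 0.063, 0.0414 to 0.0929) and 35 UMIs in pendrin-bearing against 85 in pendrin-low members of the sham library (ratio 0.088, 0.0576 to 0.132). Calcr, the calcitonin receptor gene, had 3 UMIs in pendrin-bearing against 27 in pendrin-low members of the nephrectomy library (ratio 0.0448, 0.0087 to 0.146) and 5 UMIs in pendrin-bearing against 21 in pendrin-low members of the sham library (ratio 0.0509, 0.015 to 0.139). Defb1, an antimicrobial defensin gene, had 30 UMIs in pendrin-bearing against 172 in pendrin-low members of the nephrectomy library (ratio 0.0703, 0.046 to 0.104) and 36 UMIs in pendrin-bearing against 81 in pendrin-low members of the sham library (ratio 0.095, 0.0623 to 0.142). Slc35f1, Kctd8, Pced1b, Lrrc31, Sox5, Mme and Fut8 were the other 7 lowest. Of the proton pump genes measured, 0 of 9 cytosolic and 0 of 12 membrane or accessory genes reached a ratio of 2 either way in both libraries. With 2.49% and 1.51% of all genes called, a list this short would hold few or no calls in any case. Median depth was 11221 UMIs in pendrin-bearing and 9650 in pendrin-low nephrectomy members, and 9230 and 5131 in sham members, and the part of depth in these ratios was not tested.

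The share of members was close in the 2 libraries. They made up 1.62% of passing nephrectomy barcodes (exact interval 1.19 to 2.14) and 1.39% of passing sham barcodes (0.983 to 1.92), a difference of 0.223 percentage points with a counting interval of -0.434 to 0.872. Pendrin-bearing members alone were 1.07% (0.725 to 1.51) against 0.979% (0.641 to 1.43), a difference of 0.0867 points (-0.463 to 0.628). Type A nuclei, chosen by the mirrored rule with more type A than type B marker UMIs, numbered 19 and 15. Members were 71.2% of both types together in the nephrectomy library (58.7 to 81.7) and 71.2% in the sham library (56.9 to 82.9). No difference in these shares was detectable at this number of nuclei.

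Set against type A nuclei of the same library, members differed in both directions. Of 4007 genes with at least 20 UMIs over both types in each library, 113 (2.82%) were at least 2 times higher in members in both libraries and 77 (1.92%) at least 2 times lower. With TMM scaling, which shifted these log2 ratios by 0.17 in the nephrectomy library and 0.22 in the sham library, 168 were higher and 50 lower, so that the higher genes made up 77.1% of the calls against 59.5% as reported. Type A nuclei had median depths of 8335 and 5596 UMIs. The rule split the types on their markers, so this is a description of the 2 sets. Nbea, a protein of vesicle traffic, had 1793 UMIs in members against 6 in type A nuclei of the nephrectomy library (ratio 94.7, 43.4 to 258) and 838 UMIs in members against 6 in type A nuclei of the sham library (ratio 41.2, 18.9 to 113). Lsamp had 6157 UMIs in members against 77 in type A nuclei of the nephrectomy library (ratio 25.3, 20.2 to 32.1) and 2863 UMIs in members against 2 in type A nuclei of the sham library (ratio 422, 117 to 3489). Both were high in members of each library and nearly absent from type A nuclei of the sham library. Thsd7a, a membrane protein with thrombospondin repeats, had 614 UMIs in members against 0 in type A nuclei of the nephrectomy library (at least 64.8-fold higher) and 207 UMIs in members against 1 in type A nuclei of the sham library (ratio 61.1, 10.8 to 2424). Tmem163, a zinc transporter, had 468 UMIs in members against 3 in type A nuclei of the nephrectomy library (ratio 49.4, 16.8 to 241) and 215 UMIs in members against 2 in type A nuclei of the sham library (ratio 31.7, 8.67 to 264). Cacna2d1, an accessory subunit of calcium channels, had 107 UMIs in members against 0 in type A nuclei of the nephrectomy library (at least 11.3-fold higher) and 56 UMIs in members against 0 in type A nuclei of the sham library (at least 5.51-fold higher). The zero counts in type A nuclei make these folds lower bounds, computed from a floor of 3 UMIs. Ripor2, Astn2, Ror1, Gramd1b and Rp1 were the other 5 of the 10 highest outside the rule.

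Lower in members were Negr1, an adhesion gene of the same family as Lsamp, and several type A genes. Negr1 had 2 UMIs in members against 66 in type A nuclei of the nephrectomy library (ratio 0.0096, 0.00114 to 0.0361) and 3 UMIs in members against 39 in type A nuclei of the sham library (ratio 0.0227, 0.00449 to 0.0714). Slc26a7, a chloride and bicarbonate exchanger of type A cells, had 20 UMIs in members against 135 in type A nuclei of the nephrectomy library (ratio 0.0469, 0.0278 to 0.0754) and 3 UMIs in members against 59 in type A nuclei of the sham library (ratio 0.015, 0.00301 to 0.046). Eya2, a transcriptional co-activator, had 10 UMIs in members against 58 in type A nuclei of the nephrectomy library (ratio 0.0546, 0.0249 to 0.108) and 8 UMIs in members against 15 in type A nuclei of the sham library (ratio 0.157, 0.0578 to 0.395). Adgrf5 had 222 UMIs in members against 368 in type A nuclei of the nephrectomy library (ratio 0.191, 0.161 to 0.226) and 120 UMIs in members against 238 in type A nuclei of the sham library (ratio 0.149, 0.118 to 0.186), and most of its UMIs in members lay in the pendrin-low ones. Pgm5, Chst8, Mme, Samd12, Clec2d and Lrrc31 made up the rest of the 10 lowest. All 7 type A markers measured were lower, 3 of them rule genes. Of the pump genes, 0 of 10 cytosolic and 0 of 12 membrane or accessory ones were called either way. The shares over all genes were 2.82% and 1.92%, at which lists this short hold few or no calls. Of 22 receptors and kinases acting on pendrin that were measured, 3 were called higher and 0 lower. Of 24 transcription factor and Notch genes, 2 were higher and 3 lower, and of 9 channel and sodium pump genes, 1 and 0. Among the receptors that act on pendrin, Casr, the calcium-sensing receptor gene, had 48 UMIs in members against 5 in type A nuclei of the nephrectomy library (ratio 3.04, 1.22 to 9.79) and 36 UMIs in members against 5 in type A nuclei of the sham library (ratio 2.12, 0.831 to 6.93). Jag1, a Notch ligand gene, had 88 UMIs in members against 7 in type A nuclei of the nephrectomy library (ratio 3.98, 1.85 to 10.2) and 84 UMIs in members against 4 in type A nuclei of the sham library (ratio 6.2, 2.33 to 23.3). Kcnj16, a potassium channel gene, had 137 UMIs in members against 13 in type A nuclei of the nephrectomy library (ratio 3.34, 1.89 to 6.43) and 46 UMIs in members against 3 in type A nuclei of the sham library (ratio 4.52, 1.45 to 22.7).

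**Figure D3:**
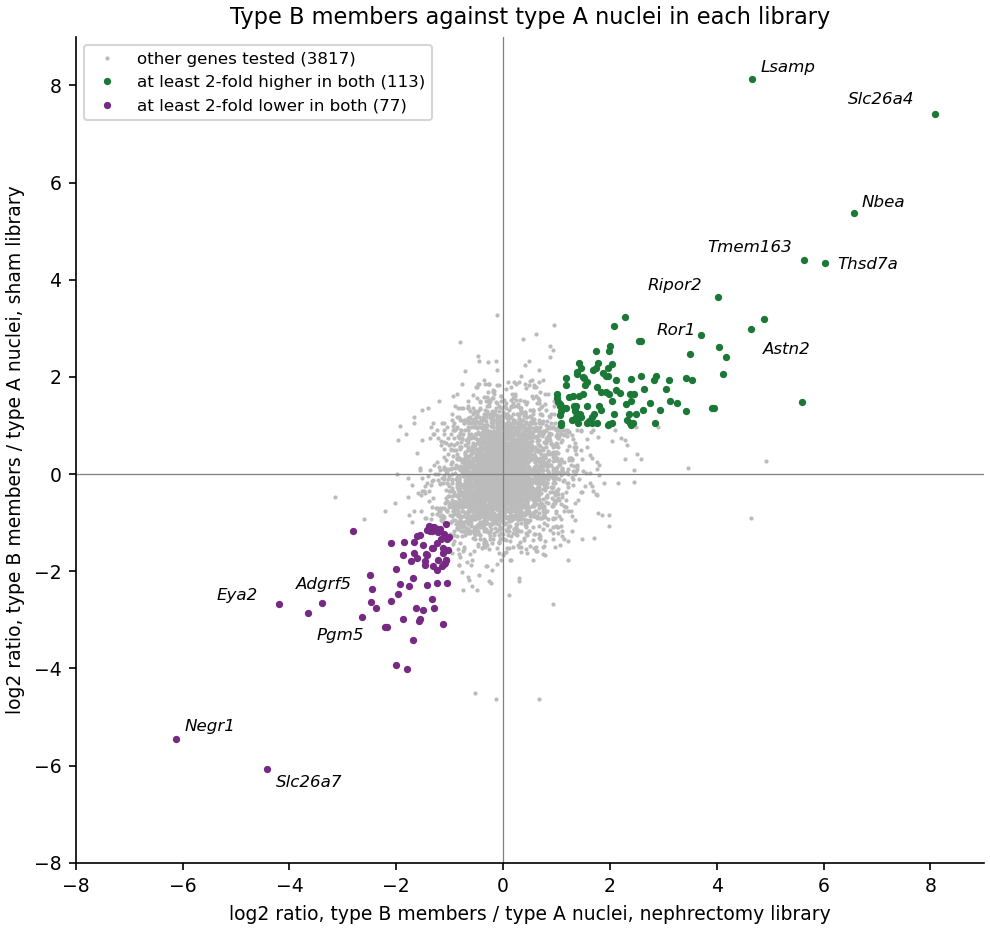
Each point is 1 gene, with the log2 ratio of members over type A nuclei in the nephrectomy library on the horizontal axis and in the sham library on the vertical axis. The 113 genes at least 2 times higher in both libraries are green and the 77 at least 2 times lower are purple; Slc26a4 is a rule gene and stands farthest to the right.

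Within the pendrin-bearing members, Rorb, an orphan nuclear receptor gene, marked a smaller set. The split was chosen after the values were seen. Rorb had at least 2 UMIs in 8 of 31 nephrectomy nuclei, with lowest, median and highest counts of 2, 7 and 16, and in 7 of 26 sham nuclei, with 2, 13 and 37. The other 23 and 19 pendrin-bearing nuclei held 0 Rorb UMIs. Median depth was 14479 and 11016 UMIs in Rorb-bearing nuclei, against 9983 and 7732 in the others, nephrectomy before sham in each pair, and 0.507% and 0.59% of proximal nuclei had a Rorb UMI. Rorb was also found outside this set, in 4 of 16 nephrectomy and 4 of 11 sham pendrin-low members and in 1 of 19 nephrectomy and 5 of 15 sham type A nuclei. Its level was 254 and 556 CPM (UMIs scaled to a total of 1000000) in pendrin-low members and 5.36 and 398 CPM in type A nuclei, against 509 and 1249 CPM in Rorb-bearing nuclei. Of 2568 genes measured, 51 (1.99%) were at least 2 times higher in Rorb-bearing nuclei in both libraries and 118 (4.60%) at least 2 times lower.

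Sgcd, a gene of the sarcoglycan complex, had 122 UMIs in Rorb-bearing against 14 in other pendrin-bearing nuclei of the nephrectomy library (ratio 21.3, 12.2 to 40.2) and 34 UMIs in Rorb-bearing against 10 in other pendrin-bearing nuclei of the sham library (ratio 6.92, 3.34 to 15.7). Dagla, which makes an endocannabinoid lipid, had 25 UMIs in Rorb-bearing against 2 in other pendrin-bearing nuclei of the nephrectomy library (ratio 30.6, 7.63 to 266) and 28 UMIs in Rorb-bearing against 12 in other pendrin-bearing nuclei of the sham library (ratio 4.75, 2.34 to 10.3). Casr had 31 UMIs in Rorb-bearing against 12 in other pendrin-bearing nuclei of the nephrectomy library (ratio 6.32, 3.16 to 13.5) and 24 UMIs in Rorb-bearing against 11 in other pendrin-bearing nuclei of the sham library (ratio 4.44, 2.09 to 10). Plxna4, a semaphorin receptor gene, had 95 UMIs in Rorb-bearing against 43 in other pendrin-bearing nuclei of the nephrectomy library (ratio 5.41, 3.73 to 7.94) and 16 UMIs in Rorb-bearing against 10 in other pendrin-bearing nuclei of the sham library (ratio 3.26, 1.39 to 8.03). Kit, a rule gene of type A nuclei, had 23 UMIs in Rorb-bearing against 6 in other pendrin-bearing nuclei of the nephrectomy library (ratio 9.38, 3.71 to 28.2) and 42 UMIs in Rorb-bearing against 21 in other pendrin-bearing nuclei of the sham library (ratio 4.07, 2.36 to 7.23). Summed over nuclei, Rorb-bearing nuclei of both libraries thus had higher counts of Casr, Plxna4 and Kit. Of 19 receptors and kinases acting on pendrin that were measured, 2 were at least 2 times higher in both libraries and 3 at least 2 times lower. Of 2 type A markers measured, 1 was higher and 0 lower. Kit was present in 3 of 8 nephrectomy and 5 of 7 sham Rorb-bearing nuclei. In the other pendrin-bearing sham nuclei, 19 of its 21 UMIs lay in 1 nucleus. Slc26a4 stood at 7894 CPM in Rorb-bearing nephrectomy nuclei against 5422 in the others, and at 6919 against 6777 in the sham library. Both sets were cut from members with at least 3 Slc26a4 UMIs, so the presence of pendrin in them was set by that choice. Sh2d4b, Plcb1, Zbtb7c, Chic1, Ripor2 and Ncald were also among the 10 highest.

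The genes lower in Rorb-bearing nuclei included markers of the connecting tubule. All 4 connecting tubule markers measured were at least 2 times lower in both libraries. Calb1, the calbindin gene of calcium-transporting cells, had 5 UMIs in Rorb-bearing against 131 in other pendrin-bearing nuclei of the nephrectomy library (ratio 0.0934, 0.0298 to 0.224) and 3 UMIs in Rorb-bearing against 53 in other pendrin-bearing nuclei of the sham library (ratio 0.115, 0.023 to 0.355). S100g, another calcium-binding protein gene, had 13 UMIs in Rorb-bearing against 179 in other pendrin-bearing nuclei of the nephrectomy library (ratio 0.178, 0.0928 to 0.312) and 3 UMIs in Rorb-bearing against 122 in other pendrin-bearing nuclei of the sham library (ratio 0.050, 0.0102 to 0.15). Slc8a1, the sodium-calcium exchanger gene, had 14 UMIs in Rorb-bearing against 493 in other pendrin-bearing nuclei of the nephrectomy library (ratio 0.0695, 0.0377 to 0.118) and 15 UMIs in Rorb-bearing against 1067 in other pendrin-bearing nuclei of the sham library (ratio 0.0286, 0.016 to 0.0474). Oxgr1, the receptor for oxoglutarate, had 17 UMIs in Rorb-bearing against 129 in other pendrin-bearing nuclei of the nephrectomy library (ratio 0.322, 0.182 to 0.537) and 8 UMIs in Rorb-bearing against 76 in other pendrin-bearing nuclei of the sham library (ratio 0.214, 0.0892 to 0.444). Sctr, the secretin receptor gene, had 8 UMIs in Rorb-bearing against 54 in other pendrin-bearing nuclei of the nephrectomy library (ratio 0.362, 0.149 to 0.766) and 5 UMIs in Rorb-bearing against 47 in other pendrin-bearing nuclei of the sham library (ratio 0.216, 0.0672 to 0.542). Egfem1, Malrd1, Ptprd, Gramd1b, Slc25a21, Trpm3 and Fgf1 were the others among the 10 lowest. In 6 nephrectomy members (2 pendrin-bearing and 4 pendrin-low) and 1 sham member, at least 20 Slc8a1 UMIs were present, and these nuclei held 1160 of 1312 Slc8a1 UMIs in the nephrectomy members and 1010 of 1094 in the sham members. Leaving them out, Slc8a1 had ratios of 0.347 and 0.482, nephrectomy before sham, much nearer to 1 than the 0.0695 and 0.0286 above. Calb1 had ratios of 0.137 and 0.229 and S100g of 0.194 and 0.0555, with 47 genes higher and 111 lower among 2411. Mitochondrially encoded genes went the same way, 8 of 10 measured at least 2 times lower in both libraries. Single nuclei among the other pendrin-bearing ones had high mitochondrial shares. These were 9.51% and 4.34% in sham nuclei of 7195 and 12716 UMIs, and 5.59% in a nephrectomy nucleus of 9271 UMIs. The part of these nuclei, of depth and of free RNA in the lower mitochondrial counts was not tested.

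Between the libraries, 1053 of 6737 genes measured in members (15.6%, at least 20 UMIs over both libraries) had a nephrectomy to sham ratio of at least 1.5 and 1008 (15.0%) a ratio of 1/1.5 or less, per UMI of all members. In pendrin-bearing members alone, 998 of 5696 genes (17.5%) were higher and 854 (15.0%) lower. The median log2 ratio over all genes was 0.02 in members and 0.05 in pendrin-bearing members. With counts this small many of these ratios lie within counting error: of 1833 genes with at least 100 UMIs, 10.6% were higher and 5.07% lower. The 10 highest and 10 lowest genes named next were taken by a fixed rule. It read genes with at least 50 UMIs in at least 10 nuclei and no predicted gene name. Their level in members also had to reach that of the whole libraries. Of 2183 such genes, 50 passed a ratio of 2-fold upward and 36 downward.

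Among the genes this rule read, Cacna1e and Kctd16 were in the 10 highest in nephrectomy members. Both were also higher in pendrin-bearing members alone. Cacna1e, the pore subunit of a voltage-gated calcium channel, had 78 UMIs in nephrectomy members against 2 UMIs in sham members (ratio 20.3, interval 5.44 to 171). Its UMIs lay in 12 of 47 nephrectomy and 2 of 37 sham nuclei, against 0.507% and 0.59% of proximal nuclei, and its ratio was 19 in pendrin-bearing members and 1.96 in the remaining barcodes of the libraries. Kctd16, an accessory protein of GABA-B receptors, had 287 UMIs in nephrectomy members against 41 UMIs in sham members (ratio 3.65, interval 2.62 to 5.19), with 6.3 when each nucleus was thinned to 1000 UMIs and 3.06 in the remaining barcodes. Plxna4 had 146 UMIs in nephrectomy members against 26 UMIs in sham members (ratio 2.92, interval 1.92 to 4.63). Rgs2, which turns off signals from Gq-coupled receptors, had 50 UMIs in nephrectomy members against 9 UMIs in sham members (ratio 2.89, interval 1.41 to 6.69). Rgs2 was found in 23 of 47 nephrectomy against 5 of 37 sham nuclei, and in 7 against 1 when each nucleus was thinned to 2000 UMIs. Counts per nucleus were 0 in most members of either library for all 4 genes, so the libraries overlapped nucleus by nucleus.

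Rasgef1b, an activator of small GTPases, had 86 UMIs in nephrectomy members against 8 UMIs in sham members (ratio 5.6, interval 2.72 to 13.4). A single nephrectomy nucleus held 31 of these UMIs, and the ratio was 2.8 with equal weight per nucleus, 3.28 without the 2 nephrectomy members over 40000 UMIs and 12.6 in pendrin-bearing members. Tafa1, a small secreted protein, had 69 UMIs in nephrectomy members against 9 UMIs in sham members (ratio 3.99, interval 1.99 to 9.1), and 7.71 in pendrin-bearing members. Srbd1 had 60 UMIs in nephrectomy members against 9 UMIs in sham members (ratio 3.47, interval 1.71 to 7.96), with 1.9 at equal weight per nucleus and 6.02 in pendrin-bearing members. Slc9a7, a sodium-proton exchanger of the Golgi, had 49 UMIs in nephrectomy members against 8 UMIs in sham members (ratio 3.19, interval 1.5 to 7.8), and 6.47 without the nucleus of each library that held most of its UMIs. Dlgap1, a scaffold protein, had 51 UMIs in nephrectomy members against 1 UMI in sham members (ratio 26.6, interval 4.56 to 1069), and 25 of its nephrectomy UMIs lay in 1 nucleus. Without that nucleus and the sham one, the count in sham members is 0 and the ratio is at least 4.57 over the floor of 3 UMIs. The ratio of Sdk1, an adhesion gene, depended on which members were read. It had 235 UMIs in nephrectomy members against 31 UMIs in sham members (ratio 3.95, interval 2.71 to 5.94), but 0.648 in pendrin-bearing members, and 186 of its 235 nephrectomy UMIs lay in the 6 members with at least 20 Slc8a1 UMIs. Without the members of either library at that limit the ratio was 1.37.

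Among the genes the same rule read, Myo5a and Rorb were in the 10 lowest in nephrectomy members. Both were also lower in pendrin-bearing members alone. Myo5a had 46 UMIs in nephrectomy members against 127 UMIs in sham members (ratio 0.189, interval 0.132 to 0.266), with 0.213 in pendrin-bearing members and 0.695 in the remaining barcodes. Its count per nucleus reached 12 in nephrectomy and 34 in sham members. Rorb had 105 UMIs in nephrectomy members against 134 UMIs in sham members (ratio 0.408, interval 0.313 to 0.531), and 0.329 in the remaining barcodes. Klk1, the kallikrein gene of the connecting tubule, had 98 UMIs in nephrectomy members against 124 UMIs in sham members (ratio 0.412, interval 0.313 to 0.541). It was present in 57.4% of nephrectomy and 56.8% of sham nuclei, and the ratio was 0.547 with equal weight per nucleus and 0.682 when thinned to 1000 UMIs, which lies inside the 1.5-fold limit. Dagla had 27 UMIs in nephrectomy members against 40 UMIs in sham members (ratio 0.352, interval 0.207 to 0.587). Pdia3, a folding enzyme of the endoplasmic reticulum, had 32 UMIs in nephrectomy members against 43 UMIs in sham members (ratio 0.388, interval 0.237 to 0.627), close to the 0.49 of the remaining barcodes. Tmem175, a potassium channel of lysosomes, had 23 UMIs in nephrectomy members against 37 UMIs in sham members (ratio 0.324, interval 0.184 to 0.559), and 0.497 in pendrin-bearing members. Usp50, Shisa4, Dlgap4 and Chic1 had ratios of 0.352, 0.363, 0.376 and 0.415, and Chic1 stood at 0.61 without the nucleus that held most of its UMIs. Rorb and Dagla are also the genes that set the Rorb-bearing nuclei apart, and those 8 and 7 nuclei held 62 of 105 nephrectomy and 104 of 134 sham Rorb UMIs.

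**Figure D4:**
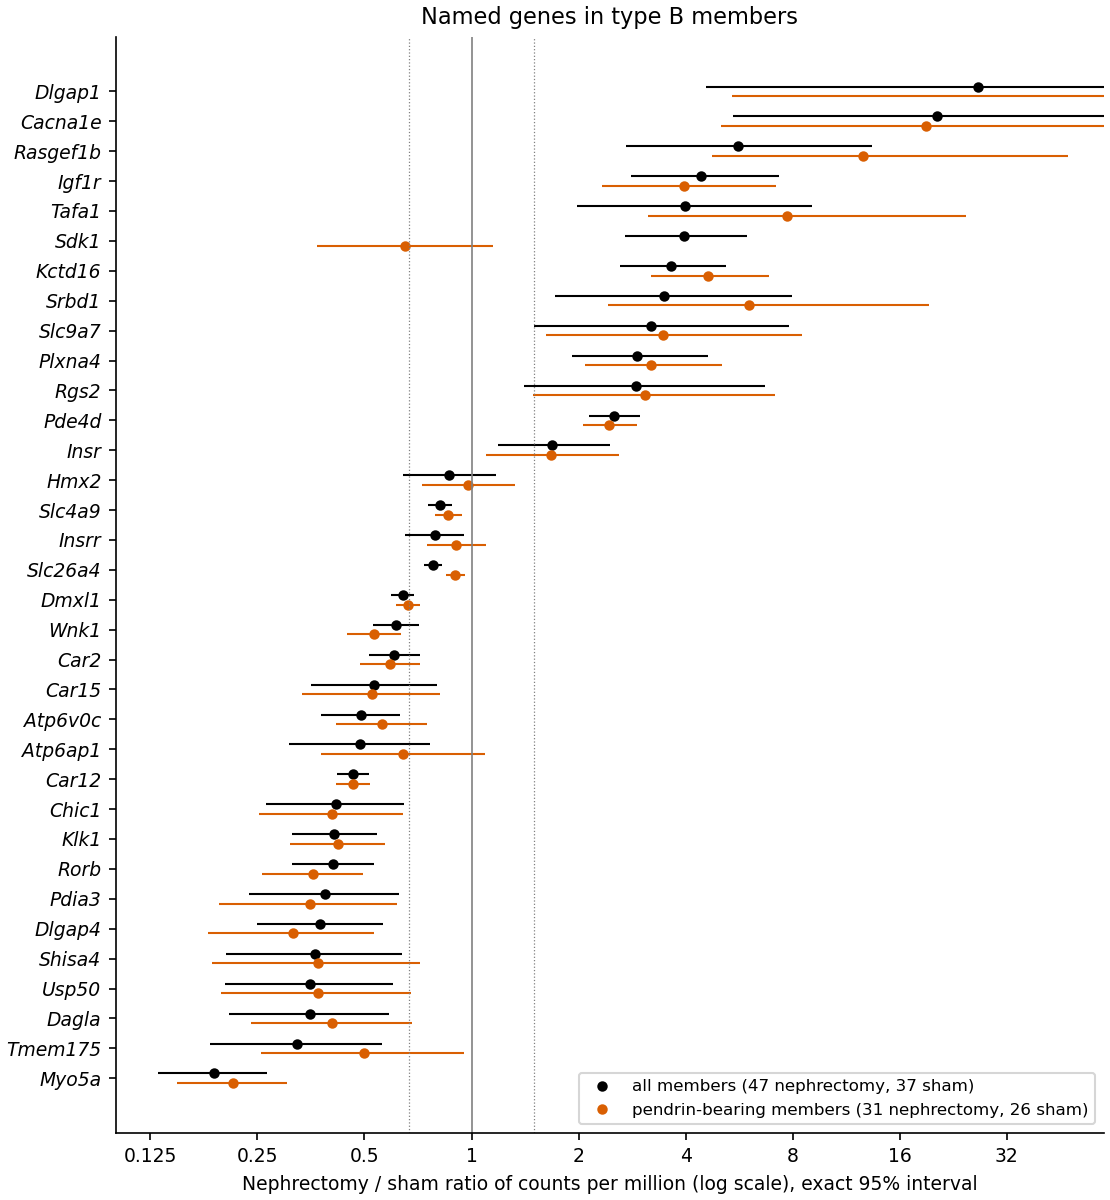
Each row is 1 named gene, with its nephrectomy to sham ratio on a log axis and a 95% counting interval; all members are black and pendrin-bearing members orange, and dotted lines mark 1.5-fold. The intervals of Cacna1e and Dlgap1 run past the right edge, Dlgap1 has no orange point because its count in pendrin-bearing sham members is 0, and the 2 points of Sdk1 lie on opposite sides of 1.

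Several of these genes were also compared within the Rorb-bearing nuclei. Cacna1e had 43 UMIs against 1 (ratio 29.4, 5.0 to 1188) in Rorb-bearing nephrectomy and sham nuclei, present in 7 of 8 and 1 of 7, and 20 UMIs against 1 (ratio 11.4, 1.82 to 471) in the other pendrin-bearing nuclei. Myo5a had 6 UMIs against 83 (ratio 0.0494, 0.0176 to 0.112) in Rorb-bearing nuclei and 39 UMIs against 44 (ratio 0.504, 0.319 to 0.794) in the others. Rgs2 was present in 8 of 8 and 1 of 7 Rorb-bearing nuclei, with 23 UMIs against 2 (ratio 7.86, 1.94 to 68.8), and had 23 UMIs against 7 (ratio 1.87, 0.776 to 5.16) in the others. Slc26a4 had 961 UMIs against 576 (ratio 1.14, 1.03 to 1.27) in Rorb-bearing nuclei and 1615 UMIs against 1148 (ratio 0.80, 0.741 to 0.864) in the others. The 2 ratios of Slc26a4 lie on opposite sides of 1. These sets hold 8 and 7 nuclei of 1 library each, and whether the ratios differ between sets was not tested.

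The vacuolar proton pump gave mostly small ratios. Of 11 cytosolic subunit genes measured, 0 were at least 1.5 times higher and 1 at least 1.5 times lower, with a median log2 ratio of -0.18, against 15.6% and 15.0% of all genes and a median of 0.02; the counts of every list below stand beside the same shares. The lower one was Atp6v1g1, with 12 nephrectomy and 13 sham UMIs. Of 14 membrane and accessory genes measured among 15, 0 were at least 1.5 times higher and 5 at least 1.5 times lower, with a median log2 ratio of -0.30, and -0.15 in pendrin-bearing members. Atp6v0c, which forms the ring that carries protons, had 120 UMIs in nephrectomy members against 128 UMIs in sham members (ratio 0.488, interval 0.377 to 0.631), and 0.652 in the remaining barcodes. Dmxl1, a factor of pump assembly, had 1650 UMIs in nephrectomy members against 1343 UMIs in sham members (ratio 0.64, interval 0.595 to 0.688), and 0.927 in the remaining barcodes. It was 0.669 with TMM scaling and 0.703 with equal weight per nucleus, both inside the 1.5-fold limit. Atp6ap1, Atp6ap2 and Atp6v0b stood at 0.485, 0.619 and 0.661, and Atp6ap2 (0.687 with equal weight) and Atp6v0b (0.692 with TMM scaling) were also not called under every setting. The kidney-type subunits Atp6v1b1 and Atp6v0a4 were nearer to 1. Atp6v1b1 had 259 UMIs in nephrectomy members against 167 UMIs in sham members (ratio 0.808, interval 0.662 to 0.987). Atp6v0a4 had 895 UMIs in nephrectomy members against 384 UMIs in sham members (ratio 1.21, interval 1.08 to 1.37), and 0.962 when thinned to 1000 UMIs. The rule genes Atp6v0d2, Atp6v1g3 and Atp6v1c2 stood at 1.13, 0.901 and 0.815, and Atp6v1g3 at 1.04 in pendrin-bearing members.

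Among the exchangers, 11 of 17 listed genes were measured, 1 was at least 1.5 times higher and 2 at least 1.5 times lower, with a median log2 ratio of -0.04, which was 0.03 with TMM scaling. Slc26a4 had 2579 UMIs in nephrectomy members against 1724 UMIs in sham members (ratio 0.779, interval 0.733 to 0.829), and 0.90 in pendrin-bearing members. Slc4a9 had 1692 UMIs in nephrectomy members against 1083 UMIs in sham members (ratio 0.814, interval 0.754 to 0.879). Both are rule genes and both lie within the 1.5-fold limit. Slc26a7 was the gene called higher, with 20 UMIs in nephrectomy members against 3 UMIs in sham members, but 15 of its nephrectomy UMIs lay in 1 nucleus. Of the carbonic anhydrase and ammonia genes, 12 of 18 were measured, 2 were at least 1.5 times higher and 4 at least 1.5 times lower, with a median log2 ratio of -0.24. Car12, a membrane-bound carbonic anhydrase, had 708 UMIs in nephrectomy members against 795 UMIs in sham members (ratio 0.464, interval 0.419 to 0.514), 0.463 in pendrin-bearing members and 1.04 in the remaining barcodes. Its lowest, median and highest counts were 2, 10 and 93 UMIs in nephrectomy members and 0, 11 and 97 in sham members, so the libraries overlapped nucleus by nucleus. In Rorb-bearing nuclei Car12 had 216 UMIs against 412 (ratio 0.359, 0.303 to 0.424), and in the other pendrin-bearing nuclei 357 UMIs against 333 (ratio 0.61, 0.524 to 0.71). Car2, the soluble carbonic anhydrase of the cytosol, had 324 UMIs in nephrectomy members against 278 UMIs in sham members (ratio 0.607, interval 0.516 to 0.715), but 1.15 when each nucleus was thinned to 1000 UMIs and 0.683 without the 2 members over 40000 UMIs. Car15 and Atp4a stood at 0.531 and 0.417. Rhcg, an ammonia channel gene, had 271 UMIs in nephrectomy members against 172 UMIs in sham members (ratio 0.821, interval 0.675 to 0.999). Car8 was called higher with 25 UMIs in nephrectomy members against 3 UMIs in sham members, 20 of them in 1 nucleus.

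Receptors and kinases known to act on pendrin went both ways. Of 25 measured among 37 listed, 4 were at least 1.5 times higher and 4 at least 1.5 times lower, with a median log2 ratio of -0.22. Both counts are 16% of the list, near the 15.6% and 15.0% of all genes. Igf1r, the receptor for insulin-like growth factor 1, had 178 UMIs in nephrectomy members against 21 UMIs in sham members (ratio 4.41, interval 2.8 to 7.31). A single nephrectomy nucleus held 66 of these UMIs, and without it and the sham one with most the ratio was 3.49, against 1.19 in the remaining barcodes. Igf1r was also present in 91.8% and 89% of proximal nuclei. As a measure of free RNA, the library's profile was subtracted in proportion to 4 proximal tubule transcripts. This left 0 Igf1r UMIs in members of either library, so by this measure a level in members above free RNA was not detectable. The nephrectomy nucleus with 66 Igf1r UMIs also held 77 UMIs of Lrp2, 1 of those 4 transcripts. Its part in the measure was not tested. Insr, the insulin receptor gene, had 136 UMIs in nephrectomy members against 42 UMIs in sham members (ratio 1.69, interval 1.19 to 2.44), with 1.24 at equal weight per nucleus and 1.18 when thinned to 1000 UMIs, both inside the 1.5-fold limit. Pde4d, which breaks down cyclic AMP, had 852 UMIs in nephrectomy members against 176 UMIs in sham members (ratio 2.52, interval 2.14 to 2.98), and 1.86 without the nucleus that held 403 of its UMIs and the sham one with most. Without the 2 members over 40000 UMIs it was 1.36, inside the 1.5-fold limit, and with the free RNA subtracted 236 UMIs were left in nephrectomy members and 0 in sham members. Wnk1, a kinase of salt transport, had 397 UMIs in nephrectomy members against 337 UMIs in sham members (ratio 0.614, interval 0.529 to 0.712). It was 0.746 without the nucleus of each library that held most of its UMIs, inside the 1.5-fold limit, and 0.383 when thinned to 1000 UMIs. Nr3c2, the mineralocorticoid receptor gene, had 931 UMIs in nephrectomy members against 382 UMIs in sham members (ratio 1.27, interval 1.13 to 1.43), and 0.856 in pendrin-bearing members. Insrr, Oxgr1 and Sctr lay at 0.787, 0.822 and 0.752, with Oxgr1 at 1.05 in pendrin-bearing members. Of 12 channel and sodium pump genes measured among 20, 2 were at least 1.5 times higher and 1 at least 1.5 times lower, with a median log2 ratio of -0.14. The 2 higher ones were Kcnj15, with 22 of its 41 nephrectomy UMIs in 1 nucleus and a ratio of 1.15 without the 2 members over 40000 UMIs, and Kcnj16, at 1.55 in members and 0.51 in pendrin-bearing members.

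Of 27 transcription factor and Notch genes measured among 38, 6 were at least 1.5 times higher and 4 at least 1.5 times lower, with a median log2 ratio of 0.12. That is 22.2% and 14.8% of the list, against 15.6% and 15.0% of all genes. Esrrb, an orphan nuclear receptor gene, had 56 UMIs in nephrectomy members against 15 UMIs in sham members (ratio 1.94, interval 1.08 to 3.7). Pax2 and Pax8, kidney lineage factors, stood at 1.77 and 1.74, with Pax8 at 1.46 in pendrin-bearing members. Jag1 had 88 UMIs in nephrectomy members against 84 UMIs in sham members (ratio 0.546, interval 0.40 to 0.745). Hes1, a Notch target gene, had 41 UMIs in nephrectomy members against 37 UMIs in sham members (ratio 0.577, interval 0.361 to 0.926). Foxi1 had 41 UMIs in nephrectomy members against 26 UMIs in sham members (ratio 0.821, interval 0.491 to 1.4), with 1.17 in pendrin-bearing members, and Hmx2 123 UMIs in nephrectomy members against 74 UMIs in sham members (ratio 0.866, interval 0.644 to 1.17). Jag1 and Hes1 were thus both lower in nephrectomy members, while the list's share of lower genes was near that of all genes. Dmrt2 was the next lowest gene of the list after Jag1, and Lgals3 was its highest. Hes1, Pax2 and Pax8 were chosen after their values were seen. The intervals of Foxi1 and Hmx2 include 1.

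Energy genes had medians below 0, except that the citrate cycle and glycolysis median was 0.19 when thinned to 1000 UMIs. Of 56 respiratory chain genes of the nucleus measured among 59, 1 was at least 1.5 times higher and 13 at least 1.5 times lower, with a median log2 ratio of -0.31, beside a median of -0.54 in the remaining barcodes. Of 11 mitochondrially encoded genes measured among 13, 1 was at least 1.5 times higher and 3 at least 1.5 times lower, with a median log2 ratio of -0.44, beside -0.43. Of 31 citrate cycle and glycolysis genes measured among 35, 1 was at least 1.5 times higher and 5 at least 1.5 times lower, with a median log2 ratio of -0.25. The first 2 medians were below 0 in the remaining barcodes too. Median mitochondrial shares of members were 0.369% in the nephrectomy library and 0.513% in the sham library. Of 14 stress and immediate early genes measured, 2 were at least 1.5 times higher and 5 at least 1.5 times lower, with a median log2 ratio of -0.19. Klf6, an early response factor, had 25 UMIs in nephrectomy members against 4 UMIs in sham members (ratio 3.26, interval 1.12 to 12.9). Hspa5, the main chaperone of the endoplasmic reticulum, had 23 UMIs in nephrectomy members against 31 UMIs in sham members (ratio 0.386, interval 0.215 to 0.685), and 0.394 in the remaining barcodes.

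Of 15 TGF-beta and matrix genes measured among 28, 6 were at least 1.5 times higher and 1 at least 1.5 times lower, with a median log2 ratio of 0.34, beside 0.11 in the remaining barcodes. Tgfbr1, a receptor of TGF-beta, had 83 UMIs in nephrectomy members against 16 UMIs in sham members (ratio 2.7, interval 1.57 to 4.94). Smad2, which carries its signal to the nucleus, had 78 UMIs in nephrectomy members against 19 UMIs in sham members (ratio 2.14, interval 1.28 to 3.74), and 0.987 in the remaining barcodes. Of 8 injury genes measured among 25, 4 were at least 1.5 times higher and 0 at least 1.5 times lower, with a median log2 ratio of 0.47, beside 0.33 in the remaining barcodes, and against 15.6% and 15.0% of all genes called higher and lower. Anxa3 had 30 UMIs in nephrectomy members against 8 UMIs in sham members (ratio 1.95, interval 0.875 to 4.93), and Clu, a secreted chaperone, 31 UMIs in nephrectomy members against 10 UMIs in sham members (ratio 1.61, interval 0.771 to 3.69). Both intervals include 1, and Clu was 1.44 without the members with at least 20 Slc8a1 UMIs. Of 7 chondroitin sulfate genes measured among 34, 1 was at least 1.5 times higher and 1 at least 1.5 times lower, with a median log2 ratio of -0.22. Csgalnact1, the chondroitin sulfate enzyme named in the study's title, had 8 nephrectomy and 3 sham UMIs in members, in 2 and 1 nuclei, and Vcan, the versican gene, 2 and 0. Neither count allows a comparison. Of the remaining lists, 2 cell cycle genes were measured, 1 at least 1.5 times higher and 1 at least 1.5 times lower. Ccnd3, a cyclin gene, had 113 UMIs in nephrectomy members against 30 UMIs in sham members (ratio 1.96, interval 1.3 to 3.04). Cdkn1b was the lower one, with a log2 ratio of -0.83. Inflammatory, interferon and antimicrobial lists had 2, 2 and 1 genes measured, the last being Defb1 at 0.899.

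**Figure D5:**
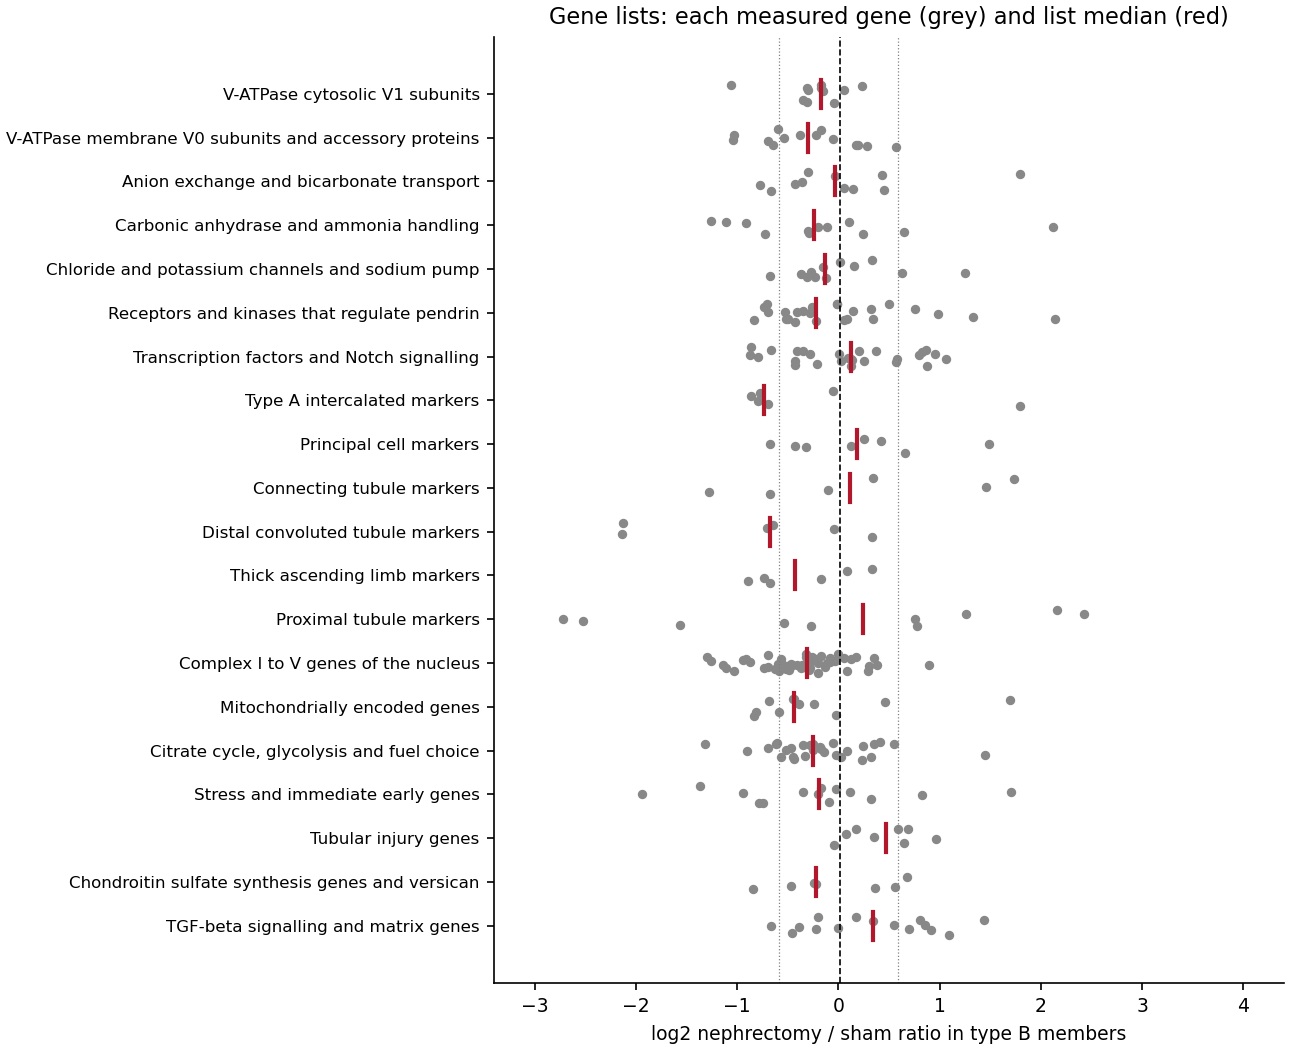
Each row is 1 gene list, with the log2 nephrectomy to sham ratios of its measured genes in members as grey points and their median as a red bar; the dashed line is the median of all genes and the dotted lines mark 1.5-fold. Lists with fewer than 6 genes measured are not drawn. The medians of the respiratory chain (-0.31) and membrane pump (-0.30) lists lie left of the dashed line, and that of the TGF-beta list (0.34) right of it.

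Markers of other cell types were also counted in the members. Endothelial markers summed to 135 UMIs over 6 genes in nephrectomy members, present in 13 of 47 nuclei with 105 in a single nucleus of 44502 UMIs, and to 6 UMIs in 5 of 37 sham members, with Kdr and Egfl7 at 0. Proximal tubule markers summed to 710 UMIs in nephrectomy members, 258 of them in 1 nucleus of 41643 UMIs, and to 849 in sham members, 326 of them in 1 nucleus of 16988 UMIs. Connecting tubule markers summed to 2023 and 1435 UMIs, with Trpv6 at 0 in sham members. Of these, 622 lay in 1 nephrectomy nucleus of 19533 UMIs and 1093 in 1 sham nucleus of 16987 UMIs. Principal cell markers summed to 306 and 139 UMIs, with Elf5 at 0 in both libraries, and the highest single nuclei held 49 and 39. Distal convoluted tubule markers summed to 792 and 609 UMIs, with Pvalb at 0 in both. The highest single nuclei held 69 and 217 of them, the latter being the sham nucleus of 16987 UMIs. Thick ascending limb markers summed to 247 and 160, with Cldn16 at 0 in both. By ratio, 3 of 3 endothelial, 5 of 10 proximal and 1 of 6 type A markers measured were at least 1.5 times higher in nephrectomy members, and 0, 3 and 4 at least 1.5 times lower. Podocyte markers summed to 15 and 2 UMIs, fibroblast markers to 8 and 3 and immune markers to 26 and 11. Kap, an abundant proximal transcript, had 180 UMIs in nephrectomy members and 616 in sham members, a ratio of 0.152 beside 0.184 in the remaining barcodes. The transcripts Lrp2, Cubn, Slc27a2 and Kap put free RNA at 23.3% of nephrectomy and 28.1% of sham member UMIs. The first 3 alone put it at 20.04% and 9.47%, so the estimate for sham members rests largely on Kap. In the nephrectomy library, the nucleus of 41643 UMIs held 77 Lrp2 UMIs. The Lrp2 ratio was 2.39 in members and 0.638 without the 2 members over 40000 UMIs. The part of that nucleus in the nephrectomy estimate was not tested. With the free RNA subtracted, 1116 of 5477 genes (20.4%) were higher and 982 (17.9%) lower. Without the 2 members over 40000 UMIs, 926 of 6345 genes (14.6%) were higher and 1021 (16.1%) lower. The median log2 ratio of proximal tubule markers was 0.24 as reported, -0.54 without those 2 members and 2.08 without the sham member among the highest 3% of doublet scores. The part of the other cell types' transcripts in single ratios was not tested beyond these settings.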

How the data were processed

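The deposited matrices hold counts of UMIs per gene and barcode, made by the authors with Cell Ranger (7.0.1 per the file headers, 7.1.0 per the submitters' processing notes) on mm10. How barcodes were called and whether intronic reads were counted are not given in the sources used here. UMIs of members were summed per library, scaled to their total, and compared as ratios with exact conditional binomial intervals. Shares have exact Clopper-Pearson intervals, and differences of shares Newcombe intervals. With 1 library per group no p-value was computed. Between libraries, the 10 highest and 10 lowest genes were named by a rule on counts, nuclei, ratio, gene name and level against the whole libraries. Between sets of nuclei, the rule read counts and the smaller ratio, with rule genes and predicted names left out. Members and gene lists were chosen with earlier results of these data known. Doublets were scored with Scrublet in scanpy 1.11.5, which called 3 and 6 barcodes and so did not work, and no barcode was removed. Ratio code was tested on simulated data. Python 3.11.15, scipy 1.17.1, R 4.3.3 and edgeR 4.0.16 (for TMM factors only) were used. Gene positions are from GENCODE on GRCm38.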

Additional observations from a re-analysis of the deposited data

How the results depend on the processing

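The share of members differed by 0.0540 to 0.268 percentage points between the libraries, higher in the nephrectomy library, under the 10 alternatives tried, and each interval included 0. The 1053 higher and 1008 lower genes were 142 and 85 with each nucleus thinned to 1000 UMIs, 1669 and 6863 with no UMI minimum, 469 and 303 with at least 50 UMIs, and 926 and 1021 without the 2 members over 40000 UMIs. The higher share of these calls was 51.1% as reported, 62.6% thinned and 19.6% with no minimum. TMM scaling shifted all nephrectomy to sham log2 ratios by 0.06, and those of members over type A nuclei by 0.17 and 0.22. For members over type A nuclei, the 113 higher and 77 lower genes were 15 and 6 thinned, 47 and 28 with at least 50 UMIs, 168 and 50 under TMM, and 113 and 3350 with no minimum. Fewer genes or UMIs were read under the thinned and stricter settings. With no minimum, a gene with at most 3 UMIs on each side was set to the floor of 3 on both. The unequal totals alone then placed it among the lower genes. The 6863 and 3350 lower genes and the 19.6% hold such genes, so they do not measure a difference between the sets. Among 71 single genes, 851 of 870 alternative log2 ratios kept their sign and 19 in 12 genes turned; of the 55 genes past 1.5-fold, 5 turned, 11 others fell inside the limit at least once and 39 did neither. In members with at least 3 Slc26a4 UMIs the turned ratios were Sdk1 at -0.62, Kcnj16 at -0.97, Nr3c2 at -0.22, Foxi1 at 0.23, Oxgr1 at 0.07 and Atp6v1g3 at 0.06. Thinned, they were Car2 at 0.20, Defb1 at 0.37, Atp6v0a4 at -0.06, Atp6v1g3 at 0.07 and Slc8a1 at 0.13. Without the 2 members over 40000 UMIs, they were Lrp2 at -0.65, Adgrf5 at 0.11 (0.01 under TMM) and Defb1 at 0.05 (0.04 without the nuclei with most of its UMIs). Slc8a1 also turned to 0.17 with equal weight per nucleus, 0.018 without members with at least 20 Slc8a1 UMIs and 2.22 without the nuclei with most of its UMIs. Among 21 list medians, 215 of 235 alternatives kept their sign and 20 in 10 lists turned. Of the 3 medians past 1.5-fold, that of distal convoluted tubule markers turned, to 0.17 without members with at least 20 Slc8a1 UMIs. Those of principal cell (-1.26) and connecting tubule (-0.68) markers and of stress genes (0.08) turned in members with at least 3 Slc26a4 UMIs, and that of proximal markers (-0.54) without the 2 members over 40000 UMIs, and the first 2 and the last also under other settings. The lists of exchangers, channels, citrate cycle, chondroitin sulfate and Notch genes turned between -0.02 and 0.19. The cause of these turns was not tested beyond the members left out. The settings on members with at least 3 Slc26a4 UMIs, over 40000 UMIs or at least 20 Slc8a1 UMIs, and the shares thinned to 2000 UMIs, were chosen after seeing the data. No paired analysis was possible because each group had 1 library, which also left no replicate to leave out. Depth limits genes under 20 UMIs and any difference between animals.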

Other observations

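Among the nephrectomy and sham barcodes left out by the rule, 18 and 10 held at least 3 Slc26a4 UMIs. The proximal tubule limit left out 14 and 8 of them and the loop and distal limit 5 and 4, with overlaps, and 0 and 0 had more type A than type B marker UMIs. Of the 73 and 70 barcodes with the highest doublet scores, 0 were nephrectomy members and 1 was a sham member.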
